A study of Mus musculus with 15 samples.

Results

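Meis1, Kctd14, Cnr2, Arhgap19 and Trib2 are 5 of the 19937 genes measured in D1 cells, and they were chosen by their measured FK506 difference, a higher level when curdlan was given together with FK506 than when curdlan was given alone. Meis1, Kctd14 and Cnr2 ranked 3, 4 and 5 among all genes for the rise with FK506 at 2 h, and Arhgap19 and Trib2 ranked 1 and 5 at 4 h. Each gene is represented by 1 probe set of the Affymetrix mouse gene array, and all values are log2 intensities. The genes had been grouped as higher with FK506 at one time, and the array values go against a narrow reading of that name. For each of the 5 genes, all 3 arrays with FK506 lay above all 3 arrays with curdlan alone at 2 h and again at 4 h. Such a separation was common, as it held for 16.2% of all genes at 2 h and 21.7% at 4 h. At the time of ranking it was largely set by the choice of the genes. What differed between the times was the size of the difference, which reached 1.5-fold only at the time of ranking. That contrast was also set in part by the choice. It was slight for Trib2, whose 2 h difference was 1.46-fold and passed 1.5-fold under 2 alternative settings.

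D1 is a long-term line of dendritic cells from the spleen of C57BL/6 mice, kept in a medium that contains supernatant of fibroblasts transfected to make GM-CSF. The design has 5 groups of 3 arrays, labelled as biological replicates. One group was left nontreated, a pair of groups received 10 µg/ml curdlan for 2 h and for 4 h, and another pair received curdlan and FK506 together for the same times. The same 3 nontreated arrays serve both times, no array of cells given FK506 alone was analysed here, and all cells come from 1 line, so the spread describes cultures of that line and not animals. The labels do not say that the replicates were separate cultures, and p values measure the spread between these samples only. A pair of arrays stood apart from their groups, nontreated replicate 1 (array weight 0.0781, where larger weights mark closer agreement with the group) and curdlan 2 h replicate 3 (0.119). Without both, the FK506 differences at 2 h were 1.06 for Meis1, 1.05 for Kctd14, 0.95 for Cnr2, 0.25 for Arhgap19 and 0.57 for Trib2 on the log2 scale, and the 4 h differences do not use them.

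Curdlan is a fungal-type beta-glucan that is sensed by dectin-1 on dendritic cells, and dectin-1 signalling raises calcium and activates the phosphatase calcineurin. Calcineurin dephosphorylates NFAT transcription factors, which then enter the nucleus, and FK506 blocks calcineurin when bound to its cellular partner protein. Cytokine genes such as Il2 are the NFAT targets best known for being lowered by the drug. The 5 genes belong to different families. Meis1 is a homeodomain transcription factor of the TALE class that binds DNA with PBX and HOX proteins and is known for its part in blood stem and progenitor cells and in leukaemia. Kctd14 is a little-studied member of the KCTD family, proteins with a BTB domain, several of which are adaptors of cullin-3 ubiquitin ligases. Cnr2 encodes CB2, the cannabinoid receptor of immune cells, which couples to inhibitory G proteins. Arhgap19 is a GTPase-activating protein for RhoA that is known for its part in the division of blood cells. Trib2 is a Tribbles pseudokinase, which brings the ubiquitin ligase COP1 to the transcription factor C/EBPalpha.

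By the RefSeq annotation of GRCm38.p6, Meis1 lies at chr11:18880428-19019651, Kctd14 at chr7:97436380-97459557, Cnr2 at chr4:135895189-135920219, Arhgap19 at chr19:41766588-41802084 and Trib2 at chr12:15791725-15816962. Promoter windows ran from 250 bases before to 50 bases after an annotated start. They were available for 4 of the 5 genes, with 2 alternative windows for Cnr2, and not for Kctd14. The Meis1 window lies wholly inside the gene span given above, so it does not cover the outermost start. The starts of the Trib2 window and of the second Cnr2 window also lie inside their gene spans. Motif positions are counted from the start that each window was built on. The windows of the leading gene at 2 h with a window and of the leading gene at 4 h are shown on the strand of transcription (the minus strand for both), Meis1 at chr11:19018920-19019219 and Arhgap19 at chr19:41802035-41802334, with every match to the motifs searched in capitals.

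Meis1: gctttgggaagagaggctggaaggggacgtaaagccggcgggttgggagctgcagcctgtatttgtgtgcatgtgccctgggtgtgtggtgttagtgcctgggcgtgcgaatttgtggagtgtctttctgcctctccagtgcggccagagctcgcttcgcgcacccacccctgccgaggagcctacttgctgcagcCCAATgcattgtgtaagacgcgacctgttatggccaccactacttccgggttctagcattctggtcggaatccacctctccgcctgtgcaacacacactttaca

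Arhgap19: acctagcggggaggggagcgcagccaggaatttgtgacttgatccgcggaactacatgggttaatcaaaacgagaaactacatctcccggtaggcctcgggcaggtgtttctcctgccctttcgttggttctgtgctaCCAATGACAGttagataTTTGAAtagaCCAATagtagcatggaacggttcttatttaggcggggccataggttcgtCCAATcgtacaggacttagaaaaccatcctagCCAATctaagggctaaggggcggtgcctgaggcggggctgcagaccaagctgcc

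Short motifs were searched on both strands: GGAAAA, the core of the NFAT consensus; TGACAG, bound by MEIS and related TALE proteins; CCAAT, the box bound by NF-Y; and TTTGAA, the core of the cell cycle homology region. The Arhgap19 window held 4 copies of CCAAT, whose first bases lie at -112, -85, -36 and -4 from the start, and 1.06% of 32851 promoter windows of the same length held 4 or more. It also held TGACAG at -108, which shares 1 base with the first CCAAT, and TTTGAA at -95. The Meis1 window held 1 CCAAT at -54, and 37.4% of all windows held at least 1. TGACAG also occurred in the Trib2 window at -161 and in the second Cnr2 window at -53, against 19.2% of all windows, and that Cnr2 window also held CCAAT on the opposite strand at -46 and 2 copies of TTTGAA. At least 1 TTTGAA occurs in 17.9% of windows and 2 or more in 2.31%. GGAAAA was found in 0 of the 5 windows and in 23.4% of all windows. These matches describe the letters of the windows only.

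Meis1 was lowest after 2 h of curdlan. The 3 nontreated arrays read 8.79, 9.12 and 9.06, the 2 h curdlan arrays 7.87, 7.89 and 7.72, and the 2 h arrays with FK506 8.92, 8.97 and 8.94. At 4 h the curdlan arrays read 8.45, 8.60 and 8.45 and the arrays with FK506 8.85, 8.89 and 8.93. Curdlan alone lay below every nontreated array at both times, whereas the nontreated arrays and both FK506 groups overlapped one another. In these bulk samples, fewer cells of a type and less RNA per cell cannot be told apart, for this gene and the others. The 2 h values with FK506 were 1.12 ± 0.08 (log2, SE, n = 3 against 3) above curdlan alone, a 2.17-fold difference, and the 4 h values were 0.39 ± 0.08 above. These 2 differences, like all FK506 differences of the 5 genes, are given without a test, because the genes were ranked on the one time and the name of the group refers to both.

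Against nontreated cells, Meis1 differed by -1.16 ± 0.08 after 2 h of curdlan, which shares its curdlan arrays with the choice and was not tested. The ranking did not use the nontreated arrays or, for Meis1, the 4 h arrays, but since the group was named for both times the p values at the other time are not fully independent of the choice, here and for the other genes. At 4 h, curdlan alone gave -0.49 ± 0.08 (limma, adjusted p = 0.00018), which lay under the 1.5-fold minimum for a call, and curdlan with FK506 gave -0.10 ± 0.08 (limma, adjusted p = 0.386, 95% interval -0.27 to 0.07). Over 24 alternative settings, the adjusted p (limma) for curdlan with FK506 at 4 h ran from 0.0005 to 0.930. Nontreated replicate 1 was the lowest of its group, and without it the 4 h curdlan difference was -0.59 and passed both thresholds. The 4 h level minus the 2 h level was 0.67 with curdlan alone and -0.05 with FK506.

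Cnr2 was likewise lowest after 2 h of curdlan. Nontreated arrays read 7.97, 8.35 and 8.29, curdlan arrays 7.24, 7.31 and 7.04 at 2 h and 7.37, 7.38 and 7.46 at 4 h, and arrays with FK506 8.33, 8.18 and 8.17 at 2 h and 7.90, 7.91 and 7.90 at 4 h. The 2 h FK506 arrays overlapped the nontreated arrays, and the 4 h FK506 arrays lay between the nontreated and the curdlan arrays with no overlap. The FK506 difference was 1.03 ± 0.09 at 2 h and 0.50 ± 0.09 at 4 h. Cnr2 fell after 4 h of curdlan by 0.80 ± 0.09 on the log2 scale, 1.74-fold (limma, adjusted p = 9.2e-06), in a comparison where 4.15% of all genes were called lower. With FK506 at 4 h it stood 0.30 below nontreated cells (-0.30 ± 0.09, limma adjusted p = 0.0266), under the fold minimum. That adjusted p (limma) ran from 6.5e-07 to 0.295 over 24 alternative settings.

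Kctd14 stood apart from the other 4 genes because with curdlan alone it was below the nontreated level at 2 h and above it at 4 h. Nontreated arrays read 7.37, 7.49 and 7.50, curdlan arrays 6.68, 7.02 and 6.77 at 2 h and 7.95, 8.05 and 8.02 at 4 h. With FK506 the arrays read 7.98, 7.79 and 7.96 at 2 h and 8.49, 8.56 and 8.52 at 4 h. The 2 h curdlan arrays lay below all nontreated arrays, and every other treated array lay above them. The 2 h FK506 arrays overlapped the 4 h curdlan arrays. The FK506 difference was 1.08 ± 0.08 at 2 h and 0.52 ± 0.08 at 4 h, and the 4 h level minus the 2 h level was 1.18 in curdlan alone and 0.61 in curdlan with FK506. Against nontreated cells at 4 h, curdlan with FK506 raised Kctd14 2.10-fold (1.07 ± 0.08, limma adjusted p = 1.7e-07), where 2.95% of all genes were called higher. Curdlan alone gave 0.55 ± 0.08 (limma, adjusted p = 6.5e-05), 1.47-fold and under the minimum.

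**Figure D1:**
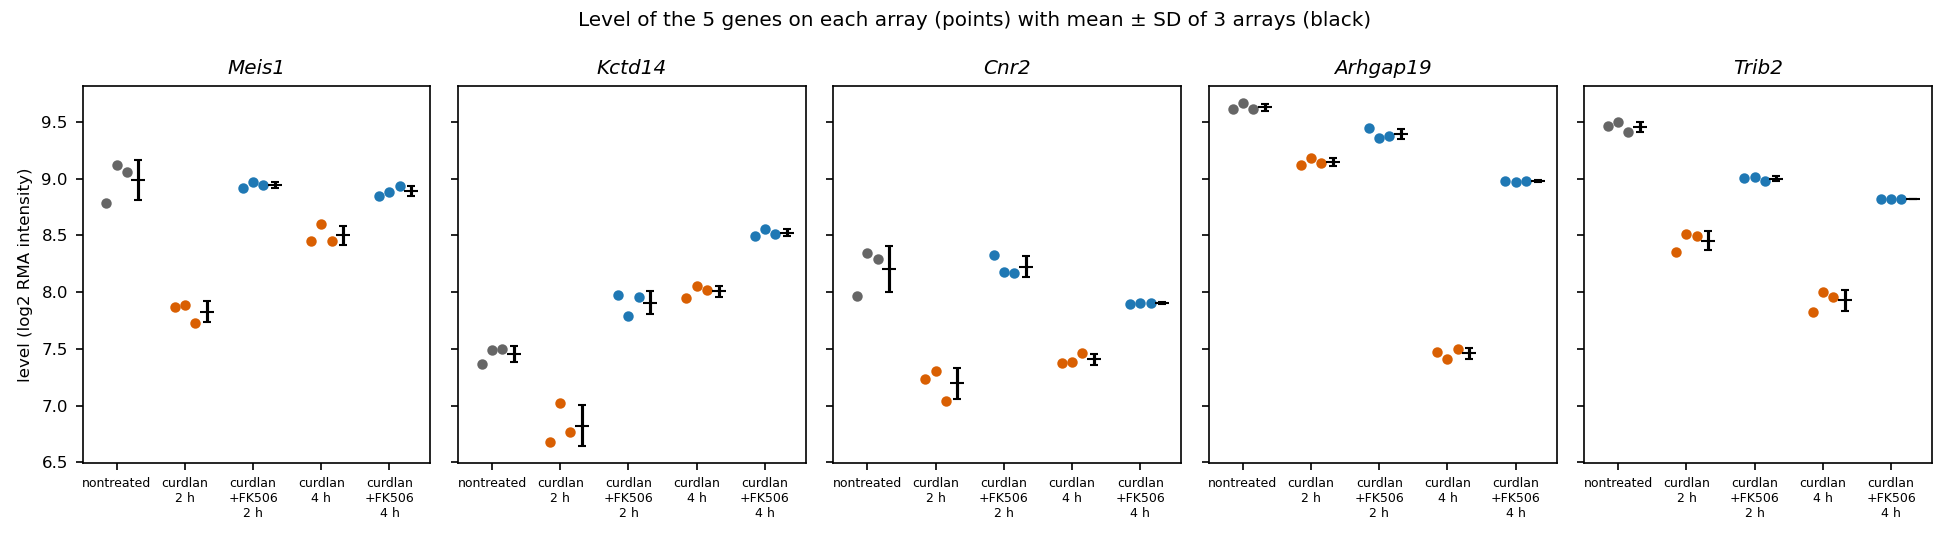
Log2 intensity of the 5 genes on each of the 15 arrays, by group (nontreated, curdlan and curdlan with FK506, at 2 h and 4 h); points are arrays, and black marks with bars are the mean ± SD of the 3 arrays of a group. At both times the 3 arrays with FK506 lie above the 3 curdlan arrays for every gene, by the widest margin for Arhgap19 at 4 h. The same separation held for 16.2% of all genes at 2 h and 21.7% at 4 h.

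Arhgap19 had the largest FK506 difference above 0 of all genes at 4 h. Nontreated arrays read 9.61, 9.66 and 9.61. Curdlan arrays read 9.12, 9.18 and 9.13 at 2 h and then 7.47, 7.41 and 7.50 at 4 h, and arrays with FK506 read 9.44, 9.36 and 9.38 at 2 h and 8.98, 8.97 and 8.98 at 4 h. No pair of groups next to each other in level overlapped, and the order was nontreated, FK506 at 2 h, curdlan at 2 h, FK506 at 4 h and curdlan at 4 h. The FK506 difference was 0.25 ± 0.04 at 2 h and 1.52 ± 0.04 at 4 h, 2.86-fold. Curdlan alone was 4.49-fold below nontreated cells at 4 h (-2.17 ± 0.04), and curdlan with FK506 stood at -0.65 ± 0.04, both on arrays that entered the choice. At 2 h, the time on which it was not ranked, curdlan gave -0.48 ± 0.04 (limma, adjusted p = 9.6e-07) and curdlan with FK506 -0.23 ± 0.04 (limma, adjusted p = 0.0010), each smaller than 1.5-fold. The limma adjusted p for curdlan with FK506 at 2 h ran from 8.1e-06 to 0.299 over 24 alternative settings. Between 2 h and 4 h the level changed by -1.68 in curdlan alone and by -0.42 with FK506.

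Trib2 was already lower at 2 h. Its nontreated arrays read 9.46, 9.50 and 9.41, the curdlan arrays 8.36, 8.51 and 8.49 at 2 h and 7.82, 8.004 and 7.95 at 4 h. With FK506 the arrays read 9.01, 9.01 and 8.98 at 2 h and 8.82 on all 3 arrays at 4 h, a group in which 58 genes (0.291%) had the same deposited value on all 3 arrays. Every FK506 array lay between the curdlan arrays of its time and the nontreated arrays, with no overlap. The FK506 difference was 0.55 ± 0.05 at 2 h, 1.46-fold, and 0.89 ± 0.05 at 4 h, 1.85-fold. After 2 h of curdlan Trib2 fell 2.00-fold (-1.002 ± 0.05, limma adjusted p = 1.1e-08), where 1.4% of all genes were called lower, and with FK506 at 2 h it stood at -0.46 ± 0.05 (limma, adjusted p = 3.8e-05), under the fold minimum. At 4 h the differences from nontreated cells were -1.53 ± 0.05 with curdlan and -0.64 ± 0.05 with curdlan and FK506.

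**Figure D2:**
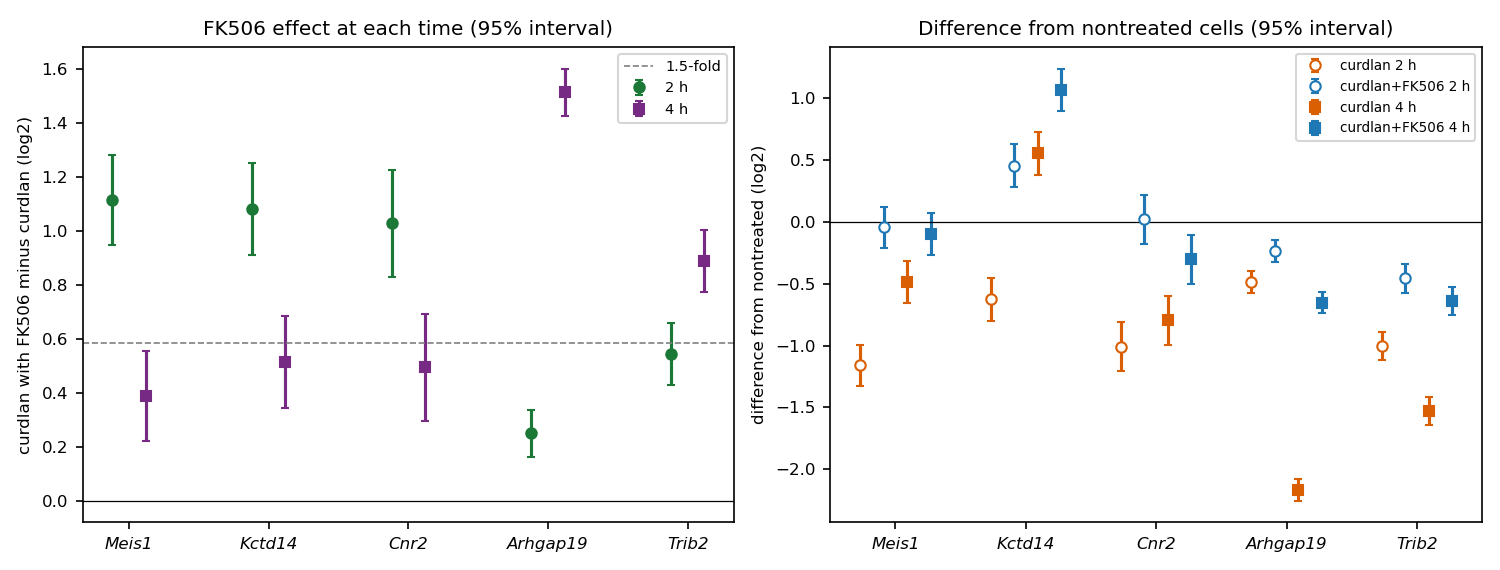
Left, log2 difference of curdlan with FK506 minus curdlan for each of the 5 genes at 2 h (circles) and 4 h (squares), with the 1.5-fold level dashed; right, log2 differences of each treated group from nontreated cells. Points are estimates and bars are 95% intervals that cover the spread between arrays only and take no account of how the genes were chosen. The FK506 differences are above 0 at both times for all 5 genes, and curdlan alone is above nontreated only for Kctd14 at 4 h.

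Set side by side, the 3 genes chosen at 2 h had FK506 differences of 1.12, 1.08 and 1.03 at 2 h and 0.39, 0.52 and 0.50 at 4 h. Arhgap19 and Trib2 had 0.25 and 0.55 at 2 h and 1.52 and 0.89 at 4 h. In each case the smaller difference was under 1.5-fold (0.585 on the log2 scale), while the gap between the lowest FK506 array and the highest curdlan array was never under 0.18. All FK506 arrays lay above all curdlan arrays for 16.2% of all genes at 2 h and for 21.7% at 4 h, so such a separation is common in these arrays. At both thresholds, 0.361% of all genes were called higher with FK506 at 2 h and 0.211% at 4 h, against 0.762% and 1.53% called lower. The choice of the 5 genes fixed their place in these lists, and the percentages are given as background. The 4 h difference minus the 2 h difference was -0.73 for Meis1, -0.57 for Kctd14, -0.53 for Cnr2, 1.26 for Arhgap19 and 0.34 for Trib2. In that comparison 0.171% of all genes were called higher and 1.06% lower, and the choice of the 5 genes set part of their values. At 2 h the gene ranked just above Meis1 was Grap2 (1.21), an adaptor of T-cell and platelet signalling, and the one just below Cnr2 was Nod2 (1.01), a sensor of bacterial peptidoglycan. At 4 h Fosb (1.46), an AP-1 subunit, came next below Arhgap19, and Smco3 (0.93) and Lmna (0.88), the gene of the nuclear lamins A and C, stood on either side of Trib2.

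The comparisons with nontreated cells at the time on which a gene was not ranked gave 10 tests, 2 for each gene, within the limit on their independence given above. Of these, 3 passed both thresholds: Trib2 after 2 h of curdlan, Cnr2 after 4 h of curdlan, and Kctd14, the one rise, after 4 h of curdlan with FK506. For curdlan with FK506, 1.81% of all genes were called higher and 0.537% lower at 2 h, and 2.95% and 2.43% at 4 h. All share the same 3 nontreated arrays. As background, 33.5% of all genes had all 4 h curdlan arrays below all nontreated arrays and 15.9% had all 2 h curdlan arrays below them, which held for Meis1, Cnr2, Arhgap19 and Trib2 at both times and for Kctd14 at 2 h. All 4 h curdlan arrays lay above all nontreated arrays for 17.1% of all genes, Kctd14 among them. With FK506, Arhgap19 and Trib2 lay below the nontreated arrays at both times and Cnr2 at 4 h, as did 22.5% of all genes at 2 h and 23.1% at 4 h. Kctd14 with FK506 lay above them at both times, as did 12.7% and 14.1% of all genes.

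The 5 genes fell into different courses over the 15 arrays. Meis1 and Cnr2 had a Pearson correlation of 0.913 and Arhgap19 and Trib2 one of 0.889, and Cnr2 and Trib2 reached 0.809 although chosen at different times. Kctd14 correlated with Meis1 at 0.675, with Trib2 at -0.032 and with Arhgap19 at -0.303. These are descriptions over 15 arrays that share 5 group means, and the choice of the genes set part of them. Among 806 genes whose group means spanned at least 1 on the log2 scale, the closest to Meis1 were Tbc1d2b (r = 0.960), a Rab GTPase-activating protein, Gpr141 (0.931), an orphan receptor, and Mrtfa (0.930), the actin-regulated coactivator of serum response factor. Gpr141 was also the closest to Cnr2 (0.915), ahead of Meis1 itself and Pgf (0.894), placental growth factor. Ehf (0.924), an ETS transcription factor, Pdcd1lg2 (0.917), the PD-1 ligand PD-L2, and Airn (0.912), a noncoding RNA antisense to Igf2r, were closest to Kctd14. Arhgap19 was followed most closely by Nceh1 (0.985), a cholesteryl ester hydrolase, Lss (0.976), lanosterol synthase, and Dok2 (0.967), an inhibitory adaptor of tyrosine kinase signalling. Rgs14 (0.977), a regulator of G protein signalling, Slc16a14 (0.976), a monocarboxylate transporter family member, and Dna2 (0.965), a DNA replication nuclease, were closest to Trib2.

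**Figure D3:**
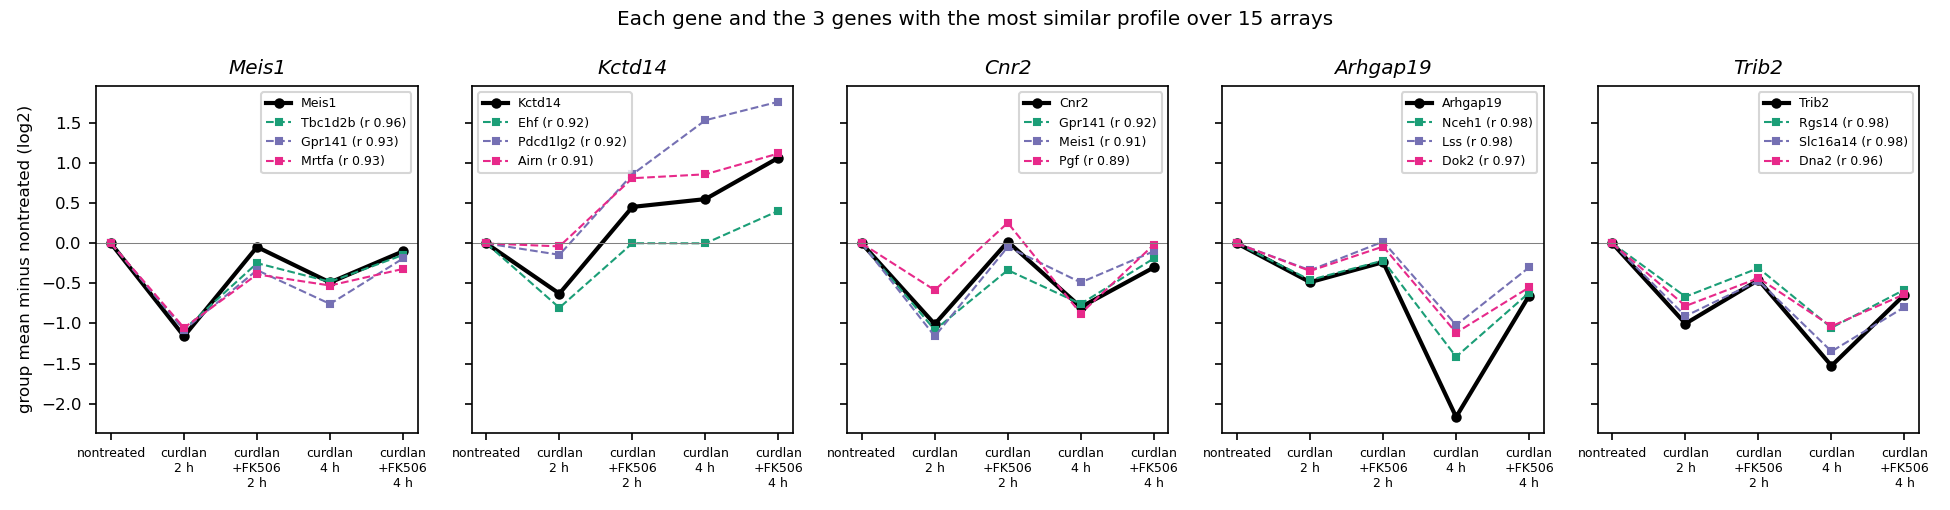
Group means of each of the 5 genes (thick line) and of the 3 genes most correlated with it over 15 arrays, as the log2 difference from the nontreated mean, across the groups on the x axis. The genes most like Meis1 dip most at 2 h of curdlan and those most like Arhgap19 and Trib2 at 4 h, while of those most like Cnr2 Pgf dips most at 4 h.

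Relatives of each gene were then read from family and pathway lists, with the 5 genes themselves left out. The lists were chosen with earlier results of these data known, so their counts are descriptions. For Meis1, 22 of 24 TALE and Hox genes were measured. With FK506 at 2 h, 0 of the 22 passed both thresholds (limma; 7 had an unadjusted p under 0.05), where 0.361% of all genes were called higher and 0.762% lower. Tgif1, a TALE repressor of retinoid and TGF-beta signalling, stood at -0.50 (limma, adjusted p = 3.2e-05), under the fold minimum. Tgif2 stood at -0.51 (limma, adjusted p = 0.0136), also under it. At 4 h 1 of the 22 was called lower, where 1.53% of all genes were. It was Tgif1, at -0.68 ± 0.05 (limma, adjusted p = 1.1e-06). Tgif1 rose with curdlan by 1.25 at 2 h and 1.42 at 4 h, when Meis1 stood below its nontreated level. Tgif2 rose by 0.62 at 2 h and Pbx3, a dimer partner of MEIS proteins, fell by 0.59 at 4 h, and the rest did not pass in a curdlan comparison. The calls of Tgif2 and Pbx3 were lost without nontreated replicate 2 and without nontreated replicate 3, that of Tgif2 also without curdlan 2 h replicate 3 and in a fit of the compared groups alone, and that of Pbx3 with array medians set equal. The median of the list at 2 h with FK506 was -0.11, against -0.03 over all genes.

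For Kctd14, 23 of 25 KCTD genes and Cul3 were measured, and 0 passed with FK506 at either time (limma, 6 and 9 with an unadjusted p under 0.05). Of all genes, 0.361% were called higher and 0.762% lower with FK506 at 2 h, and 0.211% and 1.53% at 4 h. The list had a median FK506 difference of -0.02 at 2 h and 0.08 at 4 h, against -0.03 and 0.03 over all genes. The largest differences included Kctd7, a gene of neuronal function mutated in epilepsy, at 0.41 and 0.36 (limma, adjusted p = 0.0019 and 0.0032), under the fold minimum. After 4 h of curdlan Kctd10, a cullin-3 adaptor for RhoB, rose by 0.88, while Shkbp1 and Kctd2 fell by 0.66 and 0.63, calls that were lost with array medians set equal. At 2 h of curdlan 0 of the 23 passed (9 had an unadjusted p under 0.05), where 2.2% of all genes were called higher and 1.4% lower. At 4 h of curdlan these shares were 5.05% and 4.15%.

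For Cnr2, all 20 genes listed for the endocannabinoid system were measured, which include receptors, synthetic enzymes and degrading enzymes. Napepld, which makes anandamide and related N-acylethanolamines, fell by 1.42 at 2 h of curdlan and by 1.03 at 4 h, and it was higher with FK506 at 2 h by 0.68 ± 0.09 (limma, adjusted p = 0.00015). Its mean levels were 8.62 in nontreated cells, 7.20 and 7.88 at 2 h without and with FK506, and 7.59 and 7.94 at 4 h. Mgll, the monoacylglycerol lipase that degrades 2-arachidonoylglycerol, was higher with FK506 at 4 h by 0.61 ± 0.06 (limma, adjusted p = 6.9e-06) and stood at 0.57 at 2 h, under the fold minimum; the 4 h call was lost with array medians set equal. Gpr18, a receptor for N-arachidonyl glycine, rose by 0.88 at 4 h of curdlan and fell with FK506 by 0.72 at that time. Naaa and Daglb, a hydrolase of N-acylethanolamines and a diacylglycerol lipase, fell by 0.88 and 0.75 at 4 h of curdlan. Ptpn22, a tyrosine phosphatase of lymphocyte signalling with no established place in this pathway, had been put in the list and fell with FK506 by 1.16 at 2 h. In all, 1 of 20 rose and 1 fell with FK506 at 2 h, where 0.361% of all genes were called higher and 0.762% lower, and likewise at 4 h, where 0.211% and 1.53% were. With curdlan, 0 rose and 1 fell at 2 h (2.2% and 1.4% of all genes), and 1 rose and 3 fell at 4 h (5.05% and 4.15%). The gene of the other classical cannabinoid receptor, Cnr1, had group means between 4.74 and 4.82 and passed in no comparison.

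Arhgap19 was read beside a list of RhoA and cytokinesis genes and beside the ARHGAP family. Of 20 RhoA and cytokinesis genes measured, 8 fell and 2 rose after 4 h of curdlan, where 4.15% and 5.05% of all genes were called lower and higher, and the list median was -0.56 against -0.12 over all genes. Those that fell most were Aurkb (-1.10), the Aurora B kinase, Kif14 (-0.91), a mitotic kinesin, Ect2 (-0.86), the RhoA exchange factor of cytokinesis, and Kif23 (-0.73), a subunit of centralspindlin. Rhoc and Rhob, small GTPases related to RhoA, rose by 1.31 and 0.62. The call of Kif14 was lost with the mean of all its probe sets, and that of Rhob with array weights. With array medians set equal, 5 of the 20 fell in place of 8. With FK506, 0 of the 20 passed at 2 h or at 4 h (limma, 11 and 12 with an unadjusted p under 0.05). Among all genes, 0.361% were called higher and 0.762% lower with FK506 at 2 h, and 0.211% and 1.53% at 4 h. The list median at 4 h was 0.13 against 0.03 over all genes. Aurkb had an FK506 difference of 0.29 ± 0.04 at 4 h (limma, adjusted p = 0.00015), under the fold minimum, next to 1.52 for Arhgap19.

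Of 31 ARHGAP genes measured, 8 fell and 1 rose after 4 h of curdlan, where 4.15% of all genes were called lower and 5.05% higher. With array medians set equal, 4 fell. The list median was -0.12, the same as over all genes (-0.12), and a shift of the family as a whole was not tested. Arhgap18 and Arhgap24, which act on RhoA and on Rac and Cdc42, fell by 1.34 and 1.15, Arhgap9 (-0.72) and Arhgap17 (-0.70) also fell, and Arhgap26 rose by 1.44. With FK506, Arhgap25, a Rac regulator of phagocytes, was higher by 0.72 ± 0.07 (limma, adjusted p = 7.0e-06) at 2 h, at mean levels of 9.61 and 10.33, and Arhgap23 fell by 0.84 at 2 h and by 0.73 at 4 h. The other ARHGAP genes did not pass with FK506 at either time. Over all genes, 0.361% were called higher and 0.762% lower with FK506 at 2 h, and 0.211% and 1.53% at 4 h.

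For Trib2, the relatives that passed under curdlan mostly rose, while Trib2 itself fell. Of 16 Tribbles genes and partners measured, 2 rose and 1 fell at 2 h, where 2.2% of all genes were called higher and 1.4% lower, and 5 rose and 0 fell at 4 h, where 5.05% and 4.15% were (limma; 12 had an unadjusted p under 0.05 at each time). Trib1, which also brings COP1 to C/EBP proteins, rose by 1.99 at 2 h and 1.80 at 4 h, from a mean of 7.33 in nontreated cells to 9.32 and 9.13. With FK506 the Trib1 means were 9.31 and 9.19, and its FK506 differences were -0.01 ± 0.06 and 0.07 ± 0.06 (limma, adjusted p = 0.927 and 0.698). Trib3, the stress-induced member, rose by 1.08 at 4 h, Cebpb, a C/EBP factor of myeloid cells, by 1.04 at 4 h, and Cebpa, the factor that Trib2 targets, by 0.83 at 2 h. Foxo3, a forkhead factor linked to Trib2 in melanoma, fell by 0.65 at 2 h. With FK506, 0 of the 16 passed both thresholds at either time (limma, 7 and 9 with an unadjusted p under 0.05). The shares of all genes called with FK506 were 0.361% higher and 0.762% lower at 2 h, and 0.211% and 1.53% at 4 h. The largest differences were Stk40 at 2 h (0.36, limma adjusted p = 2.2e-05) and Trib3 at 4 h (-0.45, limma adjusted p = 0.0137), both under the fold minimum.

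**Figure D4:**
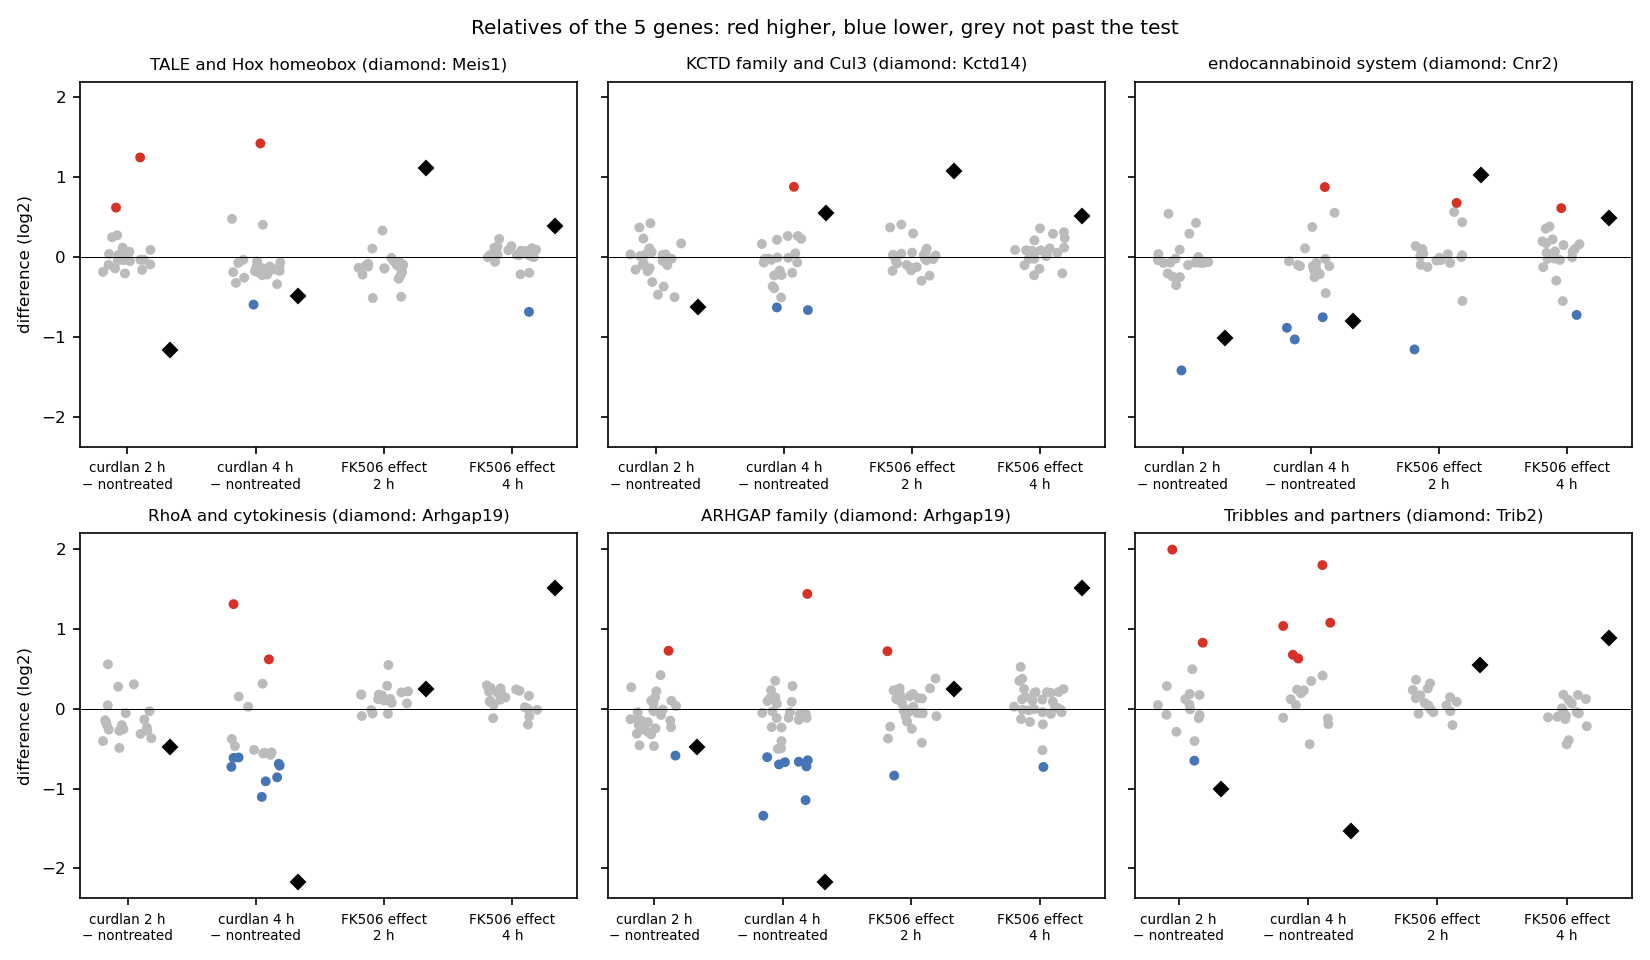
Log2 differences (y axis) for the relatives of the 5 genes, by list, in 4 comparisons (x axis): curdlan minus nontreated at 2 h and 4 h, and curdlan with FK506 minus curdlan (FK506 effect) at 2 h and 4 h; each point is a gene, red where called higher, blue where called lower and grey where not called, and the diamond is the gene the list was made for. Most relatives are grey in the FK506 comparisons, and Napepld, Mgll and Arhgap25 are the 3 red points there. Of all genes, 0.361% were called higher and 0.762% lower with FK506 at 2 h, and 0.211% and 1.53% at 4 h.

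The action of the drug was read from Rcan1, a calcineurin target gene, and from Il2. Rcan1 had mean levels of 8.01 in nontreated cells, 9.38 and 7.82 at 2 h of curdlan without and with FK506, and 8.58 and 7.90 at 4 h. Il2 had mean levels of 4.83 in nontreated cells, 11.11 and 9.50 at 2 h without and with FK506, and 12.24 and 10.41 at 4 h. Its FK506 differences were -1.61 and -1.83 (log2), and with the drug it still lay 4.67 and 5.58 above nontreated cells. Most of the Il2 rise on the log2 scale thus remained with FK506. Of 14 dendritic cell markers, 12 lay above the median of all gene means, among them Itgax, Clec7a (dectin-1), Irf8 and the MHC class II genes, while Flt3 and Xcr1 lay below it. Within the list, Irf8 (1.59 at 2 h and 2.40 at 4 h) and Irf4 (0.87 and 1.21) rose with curdlan, and Ciita fell at 2 h (-0.66) and Cd209a at 4 h (-0.90). With FK506, 0 of the 14 passed both thresholds at 2 h or 4 h (limma, 4 and 6 with an unadjusted p under 0.05). Only 0.361% of all genes were called higher and 0.762% lower at 2 h, and 0.211% and 1.53% at 4 h. Ciita at 2 h (0.51, limma adjusted p = 2.5e-06) and Irf8 at 4 h (-0.50, limma adjusted p = 2.9e-06) were under the fold minimum only. All markers of B cells (5), T cells (5) and neutrophils (6) lay below that median, and none passed both thresholds in any of the 7 comparisons (limma; between 0 and 3 of a list had an unadjusted p under 0.05). For all genes, the share called higher or called lower ran from 0.171% to 5.05% over the 7 comparisons. Probe brightness differs between genes, so positions against the median describe signal only. Of 6 progenitor markers, Cd34 and Procr lay above the median, and the mean signal of the 6 ran from 6.93 to 7.11 over the 5 groups, and its part in the Meis1 values was not tested. Procr, an endothelial and stem cell receptor, rose by 1.41 after 4 h of curdlan. Of 6 mast cell markers, 5 lay below the median, and Hdc, the histamine-forming enzyme, lay above it, rose with curdlan by 1.11 at 2 h and 1.67 at 4 h, and had FK506 differences of -0.65 at 2 h and -1.01 at 4 h, both called lower, the first not with array medians set equal. Of 6 fibroblast markers, 3 (the collagen genes Col1a1, Col1a2 and Col3a1) lay above the median, none of the 6 passed in any comparison (limma; 0 or 1 had an unadjusted p under 0.05), and the list mean ran from 6.25 to 6.48.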

How the data were processed

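Affymetrix Mouse Gene 1.0 ST arrays (1 colour, 15 arrays, 5 groups of 3) were analysed from the deposited log2 intensities, which the authors made by RMA, a method that corrects background, equalises array quantiles and summarises probes, with the affy package in R 2.15.2, per the labels. Such equalised quantiles hide a shift of all genes at once. Array medians lay between 6.45 and 6.57. Precision is limited by the small number of arrays. Of 34760 probe sets, 21640 had 1 gene symbol in the platform annotation, 1321 several and 11799 none. Per gene, the probe set with the highest mean was kept, which left 19937 genes with no filter on low values.

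The 5 group means were estimated jointly from the 15 arrays (limma 3.58.1, R 4.3.3; two-sided moderated tests, 10 residual degrees of freedom). P values were adjusted over all genes by Benjamini-Hochberg, and a gene was called at an adjusted p under 0.05 and a fold of at least 1.5, as in the study's methods. The fit was tested on simulated data. The study's own comparison lists were not used. Promoter sequences are from RefSeq (GRCm38.p6).

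The 5 genes, the lists and the motifs were chosen with earlier results of these data known. Named genes were the 5 genes, the 3 most correlated genes of each, their neighbours in rank, all list genes called in an FK506 comparison, up to 4 called each way in a curdlan comparison, and Rcan1 and Il2. In all, 25 alternatives were tried.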

Additional observations from a re-analysis of the deposited data

Results flagged for a closer look

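Among the relatives in the family and pathway lists and the drug check genes Rcan1 and Il2, 3 had FK506 differences that themselves differed between 4 h and 2 h by the interaction test (limma, adjusted over all genes, with a fold of at least 1.5). Rcan1 gave 0.88 (log2, the 4 h FK506 difference minus that at 2 h; adjusted p = 8.1e-05), because its fall with FK506 was 1.57 at 2 h and 0.69 at 4 h. Rhob gave -0.67 (adjusted p = 0.00082), with FK506 differences of 0.55 at 2 h and -0.12 at 4 h. Ptpn22 gave 0.61 (adjusted p = 0.0059), with -1.16 at 2 h and -0.55 at 4 h, and its call was lost with array medians set equal and without curdlan 2 h replicate 1, curdlan 2 h replicate 2 or FK506 4 h replicate 2.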

How the results depend on the processing

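Over the alternatives (repeated quantile normalization, array medians set equal, array weights, a variance trend, a filter on low levels, the mean of all probe sets, a replicate block, the compared groups alone, and leaving out arrays), all 240 recomputed FK506 differences of the 5 genes stayed above 0, and 834 of 840 values of the 5 genes kept their direction; the other 6 were differences near 0 between nontreated cells and 2 h of curdlan with FK506, for Meis1 and Cnr2. After 4 h of curdlan, the Meis1 difference of -0.49 reached a call with array weights (-0.61), without nontreated replicate 1 (-0.59) and without both nontreated replicate 1 and curdlan 2 h replicate 3 (-0.59), and ranged from -0.59 to -0.42 with single arrays left out. That of Kctd14 (0.55) reached one with quantile normalization repeated (0.60) and array medians set equal (0.66). The Trib2 FK506 difference at 2 h passed 1.5-fold with array medians set equal (0.61) and array weights (0.62). Adjusted p values (limma) for curdlan with FK506 against nontreated cells also varied. They reached from 0.0005 to 0.930 for Meis1 at 4 h and from 6.5e-07 to 0.295 for Cnr2 at 4 h. Those of Arhgap19 at 2 h reached from 8.1e-06 to 0.299. The highest was 0.0040 for Trib2 at 2 h and 5.9e-05 for Kctd14 at 4 h. Without the fold minimum, the counts of called genes rose from 718 to 4004 and from 1835 to 7432 for curdlan at 2 h and 4 h, from 468 to 3515 and from 1073 to 5175 for curdlan with FK506, from 224 to 1509 and from 348 to 2327 for the FK506 differences, and from 246 to 872 for the interaction. Deviations from the group means of same-numbered arrays did not run together throughout (correlations from -0.73 to 0.58 over 30 same-numbered pairs, 9 of them over 0.1). With 3 arrays per group this check cannot exclude a pairing. A replicate block gave 222 and 347 calls for FK506 and 234 for the interaction, and changed no call of the 5 genes.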
